A study of Rattus norvegicus with 12 samples.

Results

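The genes described here encode the enzymes with which rat ovarian cells make, use and recycle glutathione and remove superoxide and peroxides. They were taken by symbol, and are every gene whose name starts with Gsta, Gstk, Gstm, Gsto, Gstp, Gstt, Gstz, Mgst, Gpx, Prdx or Sod before a digit, together with Cat, Gclc, Gclm, Gss, Gsr, Txn1, Txn2, Txnrd1, Txnrd2, Nqo1, Hmox1, Nfe2l2 and Keap1. This gave 52 of the 19730 genes measured, among them 24 glutathione S-transferase (GST) genes. Gene positions are those of the authors' file, whose genome build is not given in the sources used here. The sulfiredoxin gene Srxn1, which the same choice names, was not analysed here. Levels are FPKM, in which fragment numbers are scaled by the length of the transcript and by all mapped fragments of the library, so levels of different genes can be set side by side. Of the 52 genes, 50 had a mean of at least 1 FPKM over the 12 libraries and were tested, and Gstm3l and Gstm6l, whose highest values were 0.195 and 2.36 FPKM, were not.

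Ovaries came from wild type Sprague Dawley rats at postnatal week 15, with 1 library per rat and 4 rats in each of 3 groups. The Control rats were untreated and ate standard food. The PCOS rats, a model of polycystic ovary syndrome, received letrozole, an inhibitor of aromatase, together with a high-fat diet for 30 days. The PCOS-MV rats received the same and then mogroside V, a sweet triterpene glycoside of the monk fruit, for a further 30 days. It was given by gavage as a fruit preparation that was only partly mogroside V. All groups were sampled at the end of this period, for which the paper describes no gavage or other treatment of the PCOS rats. Letrozole and diet were given together in both of these groups, so their effects cannot be told apart, and rats were accepted into the model by the cycle stage of their vaginal smears. Each library held the transcripts of ovarian cells. The granulosa gene Inha was at 388 to 988 FPKM and the steroidogenic gene Star at 462 to 2891 FPKM over the 12 libraries, while the oviduct gene Dnah9 reached at most 4.38 and the hepatocyte gene Alb at most 4.33 FPKM. The fat gene Adipoq was at 3.68 to 26.0 FPKM in Control, 0.654 to 2.95 in PCOS and 0.845 to 1.70 in PCOS-MV. Whether fat attached to the ovaries has a part in the group differences was not tested. The FPKM of a library summed to 339830 to 373758. Read numbers cannot be read from FPKM, and the depth behind a single value is unknown. Bulk ovarian RNA was sequenced, and in such samples fewer cells of a type and less RNA per cell cannot be told apart.

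Glutathione is made from glutamate, cysteine and glycine and is the main small thiol of the cell. GSTs couple it to electrophilic lipids, steroids and drugs, glutathione peroxidases spend it to reduce peroxides, and glutathione reductase restores it with NADPH. Peroxiredoxins and the thioredoxins that recharge them form a parallel route, and many of the genes are driven by the transcription factor NRF2, which binds the antioxidant response element and is held back by KEAP1. Steroid-producing cells of the ovary are rich in GSTs and in enzymes of peroxide removal, and their cytochrome P450 reactions are a known source of oxidants.

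Compared with the Control group, GSTs of the alpha and mu classes, extracellular and cytosolic superoxide dismutase and catalase were higher in the PCOS group, and the theta GST Gstt1, Gpx1, Prdx5, glutathione synthetase and the mitochondrial thioredoxin genes were lower. In total 18 of the 50 tested genes (36%) were higher and 8 (16%) were lower at a Benjamini-Hochberg adjusted p under 0.05 in limma on log2(FPKM + 1), where 11.9% of all 13430 genes tested were higher and 15.6% were lower. The share of higher genes stood above that of all genes, and the share of lower genes was close to it, so the count of lower genes is not particular to this set. In either direction 52% of the 50 genes were called, against 27.4% of all genes. The median log2 fold change of the 50 genes was 0.22, beside -0.03 over all genes. Values of the 2 groups did not overlap for 18 genes that were above Control and 8 that were below it, beside 13.8% and 17.2% of all genes.

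In the PCOS-MV group alpha and mu GSTs, Sod1, Sod3 and catalase were lower than in the PCOS group, and Gpx1, Prdx5, Gstt1, Gss and the mitochondrial thioredoxin genes were higher. Of the 50 genes, 9 (18%) were higher and 17 (34%) were lower, where 14.3% of all genes were higher and 11.4% were lower. Here the lower genes stood above the share of all genes and the higher genes were near it. In either direction 52% of the 50 genes and 25.7% of all genes were called. The count of higher genes was 4 without PCOS replicate 2, 3 or 4, and 2 without replicate 4 of both groups, a choice made after seeing the data. The median log2 fold change was -0.14, beside 0.03 over all genes. Non-overlapping values were found for 11 genes above and 17 below the PCOS group, beside 16.7% and 13.3% of all genes. The same 4 PCOS libraries enter both comparisons, so a high or low PCOS value moves both, and the values of each are given side by side below. Every log2 fold change compares FPKM + 1, so genes with low levels appear to change less than they did, and is followed by ± its standard error from limma. Where the 4 values of a group lie wholly above or below the other 4, the exact two-sided permutation p is 0.0286, the smallest that 4 libraries against 4 allow.

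**Figure D1:**
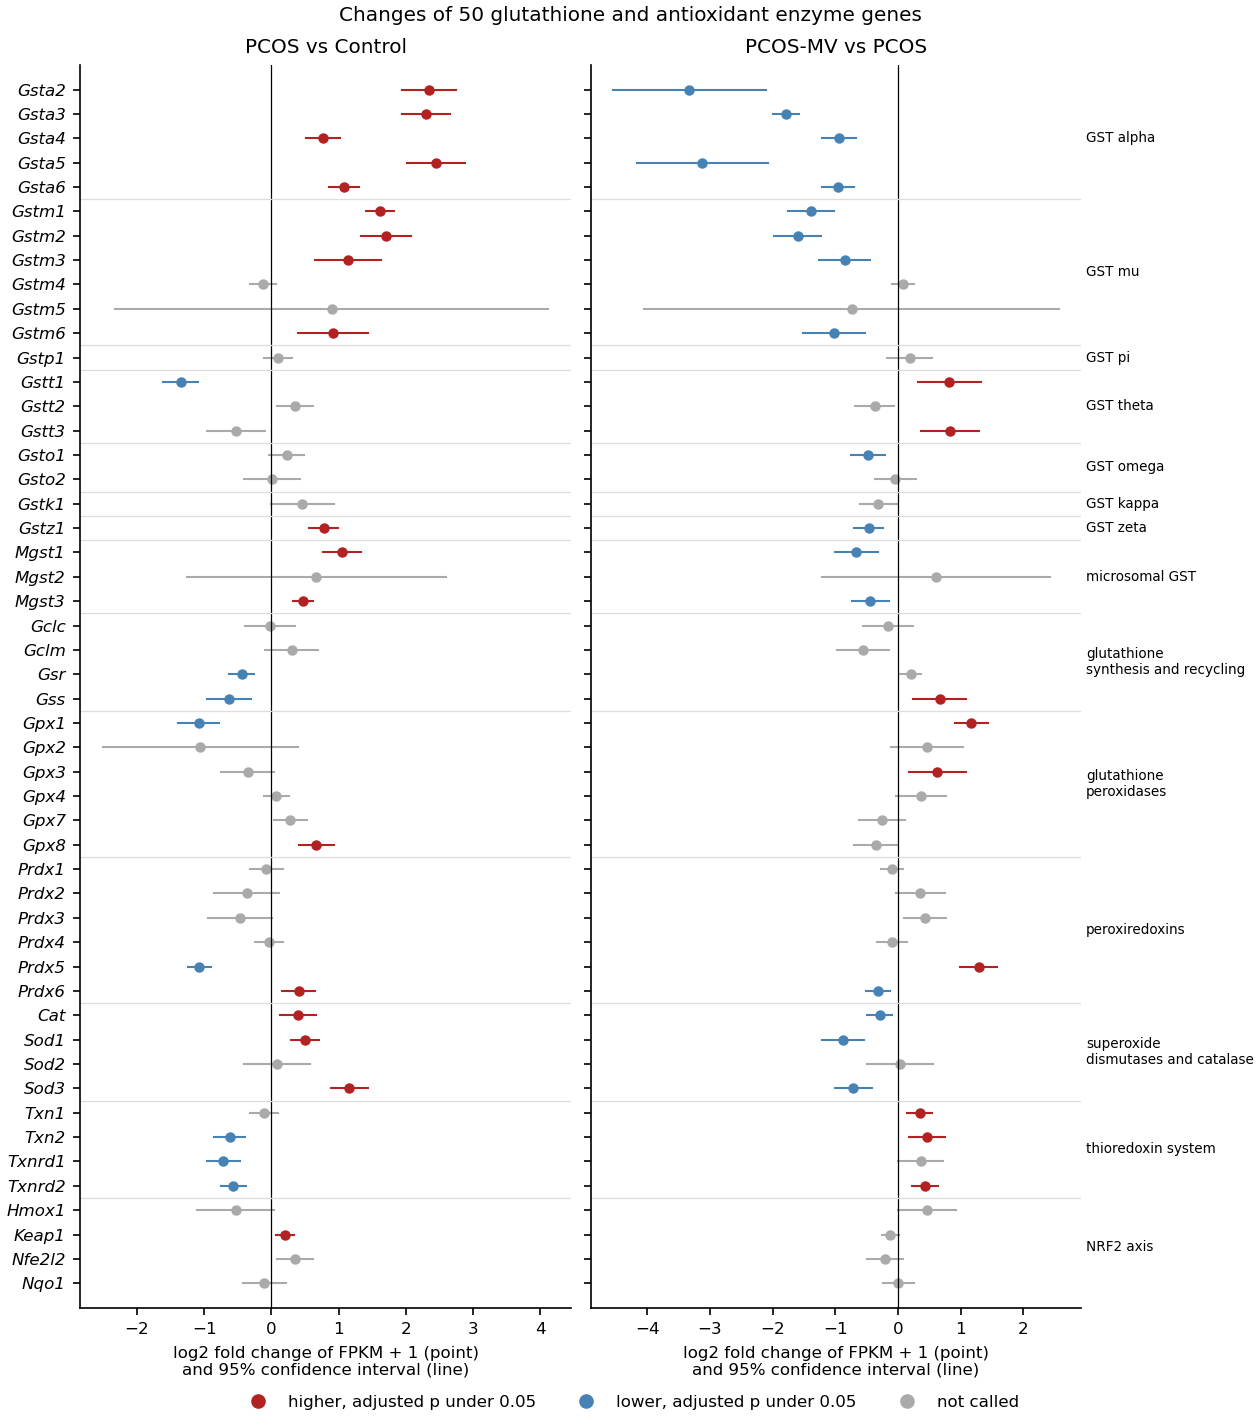
Log2 fold change of FPKM + 1 (x axis, with 95% confidence intervals, each panel on its own scale) of the 50 tested genes, grouped by role, in PCOS against Control (left) and PCOS-MV against PCOS (right). Red points are the 18 and 9 genes called higher, blue points the 8 and 17 called lower, and grey points those not called. All 5 alpha GSTs lie to the right in the left panel and to the left in the right panel, and the widest intervals in both panels belong to Gstm5 and Mgst2.

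The regulators themselves showed small differences. Keap1 (ENSRNOG00000020878, chromosome 8, 22250518 to 22259779), the adaptor that marks NRF2 for degradation, was measured at 12.2 to 12.7 FPKM in Control, 13.7 to 15.2 in PCOS and 12.9 to 13.8 in PCOS-MV, and was higher in PCOS than in Control, by 0.20 ± 0.06 (adjusted p = 0.0354) on the log2 scale. This call was lost without any 1 library except Control replicate 3, with adjusted p-values of 0.0513 (without PCOS replicate 2) to 0.104 (without PCOS replicate 4). Nfe2l2 (ENSRNOG00000001548, chromosome 3, 62497571 to 62524996), which encodes NRF2, was at 50.7 to 66.4 FPKM in Control, 65.2 to 86.1 in PCOS and 54.4 to 72.8 in PCOS-MV. Its log2 fold change of 0.35 ± 0.12 (adjusted p = 0.0569) in PCOS against Control did not pass. Its adjusted p was 0.0492 without Control replicate 1, 0.034 without PCOS replicate 3 and 0.0365 with libraries rescaled by median ratio. The classical NRF2 targets Nqo1, a quinone reductase, and Hmox1, heme oxygenase 1, did not pass in PCOS against Control, with log2 fold changes of -0.10 ± 0.14 (adjusted p = 0.627) and -0.53 ± 0.25 (adjusted p = 0.155). In PCOS-MV against PCOS, 0 of these 4 genes were called by limma, 1 was under an unadjusted p of 0.05, and 0 had non-overlapping groups. Over all 13430 genes tested, 25.7% were called, 5173 were under that p, and 16.7% lay wholly above and 13.3% wholly below PCOS. Their log2 fold changes ran from -0.21 for Nfe2l2 to 0.46 for Hmox1.

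The letters of the antioxidant response element were looked for in the promoters, to show which of these genes carry them near their start. The RefSeq promoters of the GRCr8 assembly, 250 bases before to 50 after a gene's start, could be matched to 37 of the 52 genes by a symbol that is no other gene's synonym. The core TGACNNNGC, read on both strands, lay in the promoters of 11 of these 37 genes (29.7%), and in 12.1% of all 33469 promoters of that length. The units differ, since a gene was counted if any of its promoters held the core, while all promoters were counted singly. For Txnrd1 the core lay in promoter 2, and promoter 1 held none. The NR5A element CAAGGTCA, the binding sequence of the steroidogenic factor NR5A1, lay in 0 of the 37 and in 1.52% of all promoters. These letters are a description of the sequence and say nothing of binding. Stretches around the core follow for 6 genes, of GSTs, glutathione synthesis, peroxiredoxins and thioredoxin reductase, each 5′ to 3′ on the strand of its gene with the core in capitals; where the capitals start with GC, the core lies on the opposite strand.
Gstp1, pi GST, chr1:210769748-210769776, minus strand: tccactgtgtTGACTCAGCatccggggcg
Gclm, glutathione synthesis, chr2:213031953-213031981, plus strand: tgcggtttctGCTTAGTCAttgtcttcca
Prdx1, peroxiredoxin, chr5:135383761-135383789, plus strand: cagggaaagcGCTGAGTCAtaccccgccg
Txnrd1, thioredoxin reductase, chr7:22755964-22755992, minus strand: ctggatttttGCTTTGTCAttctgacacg
Prdx5, peroxiredoxin, chr1:213532010-213532038, minus strand: cctcctgtggGCAGAGTCAtctgcgggtg
Gstz1, zeta GST, chr6:112525365-112525393, plus strand: cttgtccgctGCCCCGTCAaggagtcgta
Of the 11 genes with the core, Gstz1 was higher in PCOS than in Control, Prdx5 and Txnrd1 were lower, and Gstp1, Nfe2l2, Gpx2, Gclm, Prdx1, Prdx4 and Sod2 were not called. The other promoter is the one RefSeq names Gstm5. It lies on chromosome 2, where the authors' file places Gstm3, a gene that was higher in PCOS, and not Gstm5, which was not called, so it cannot be told to which of these measured genes it belongs. The promoters of Gsta2, Gsta3, Gsta5, Gstm3, Gstm3l and Gstm4 were not searched under these names, since their symbols are shared as synonyms. No promoter was listed under the symbols Gstm6l, Gstt1, Gstt2, Hmox1, Gpx8, Gsr, Mgst2, Prdx6 and Sod3, so these genes were not searched either. The promoters of Gsta4, Gsta6, Gstm1, Gstm2, Gstm6, Mgst1, Mgst3, Sod1, Cat and Keap1, also higher in PCOS, did not hold the core in this window. Neither did those of Gpx1, Gss, Txn2 and Txnrd2, which were lower. The remaining promoters searched, such as that of Nqo1, belong to genes that were not called and did not hold it either.

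All 5 alpha GSTs were higher in PCOS than in Control (11.9% of all genes) and lower in PCOS-MV than in PCOS (11.4%). Alpha GSTs reduce lipid hydroperoxides besides coupling glutathione to electrophiles, and members of the class isomerise steroid intermediates. Gsta5 (ENSRNOG00000000201, chromosome 8, 85553734 to 85565179) had the largest log2 fold change among the 50 genes in PCOS against Control. Its values in replicates 1 to 4 were 14.0, 9.68, 15.7 and 13.5 FPKM in Control, 56.8, 91.6, 68.2 and 92.7 in PCOS and 22.1, 3.38, 8.61 and 5.30 in PCOS-MV. The PCOS libraries were wholly above Control, PCOS-MV was wholly below PCOS, and the PCOS-MV values ran from 3.38 to 22.1 FPKM around the Control values. The log2 fold change was 2.45 ± 0.19 (adjusted p = 5.28e-05) in PCOS against Control and -3.12 ± 0.46 (adjusted p = 0.00196) in PCOS-MV against PCOS. Gsta2 (ENSRNOG00000029861, chromosome 8, 85640055 to 85645718), its neighbour, was at 10.9, 7.22, 13.4 and 10.8 FPKM in Control, 51.4, 63.9, 47.8 and 65.8 in PCOS and 16.6, 2.23, 6.32 and 1.62 in PCOS-MV. PCOS was again wholly above both groups, and PCOS-MV replicates 2, 3 and 4 were lower than every Control library. Its log2 fold changes were 2.35 ± 0.18 (adjusted p = 4.95e-05) and -3.33 ± 0.54 (adjusted p = 0.00303). Alpha GSTs are a multigene family of similar sequence, so reads may be split between members such as Gsta2 and Gsta5, and their values are uncertain as single genes.

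Gsta3 (ENSRNOG00000056847, chromosome 9, 27402381 to 27417023), whose human counterpart isomerises steroid precursors, was at 16.0, 10.5, 9.60 and 14.4 FPKM in Control, 68.3, 57.7, 72.1 and 63.0 in PCOS and 19.98, 18.7, 17.8 and 16.4 in PCOS-MV. All 4 PCOS values were above all others, and the PCOS-MV values lay just above the Control values. Its log2 fold changes were 2.31 ± 0.16 (adjusted p = 2.95e-05) and -1.78 ± 0.09 (adjusted p = 2.25e-05). Gsta4 (ENSRNOG00000030449, chromosome 8, 85497557 to 85518879), which detoxifies the lipid aldehyde hydroxynonenal and was the most abundant alpha GST, was at 119, 102, 94.5 and 122 FPKM in Control, 160.3, 203, 189.7 and 193 in PCOS and 92.8, 98.7, 81.2 and 114 in PCOS-MV. PCOS stood wholly apart from both other groups, which overlapped, with smaller log2 fold changes of 0.77 ± 0.11 (adjusted p = 0.00136) and -0.94 ± 0.12 (adjusted p = 0.00101). Gsta6 (ENSRNOG00000033402, chromosome 9, 27475273 to 27511176) was at 9.87, 7.34, 7.77 and 8.91 FPKM in Control, 18.5, 18.8, 21.0 and 17.9 in PCOS and 9.99, 8.23, 8.13 and 11.4 in PCOS-MV. It showed the same order, with log2 fold changes of 1.09 ± 0.10 (adjusted p = 0.000115) and -0.95 ± 0.11 (adjusted p = 0.00075). Of the 4 theca markers, Cyp17a1, Insl3 and Aldh1a1 were also higher and Ptch1 was lower in PCOS than in Control, and 0 were higher and 3 lower in PCOS-MV than in PCOS. The summed theca level was 86.9 to 153 FPKM in Control, 1641 to 3233 in PCOS and 41.2 to 163 in PCOS-MV. Their part in the GST differences was not tested.

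**Figure D2:**
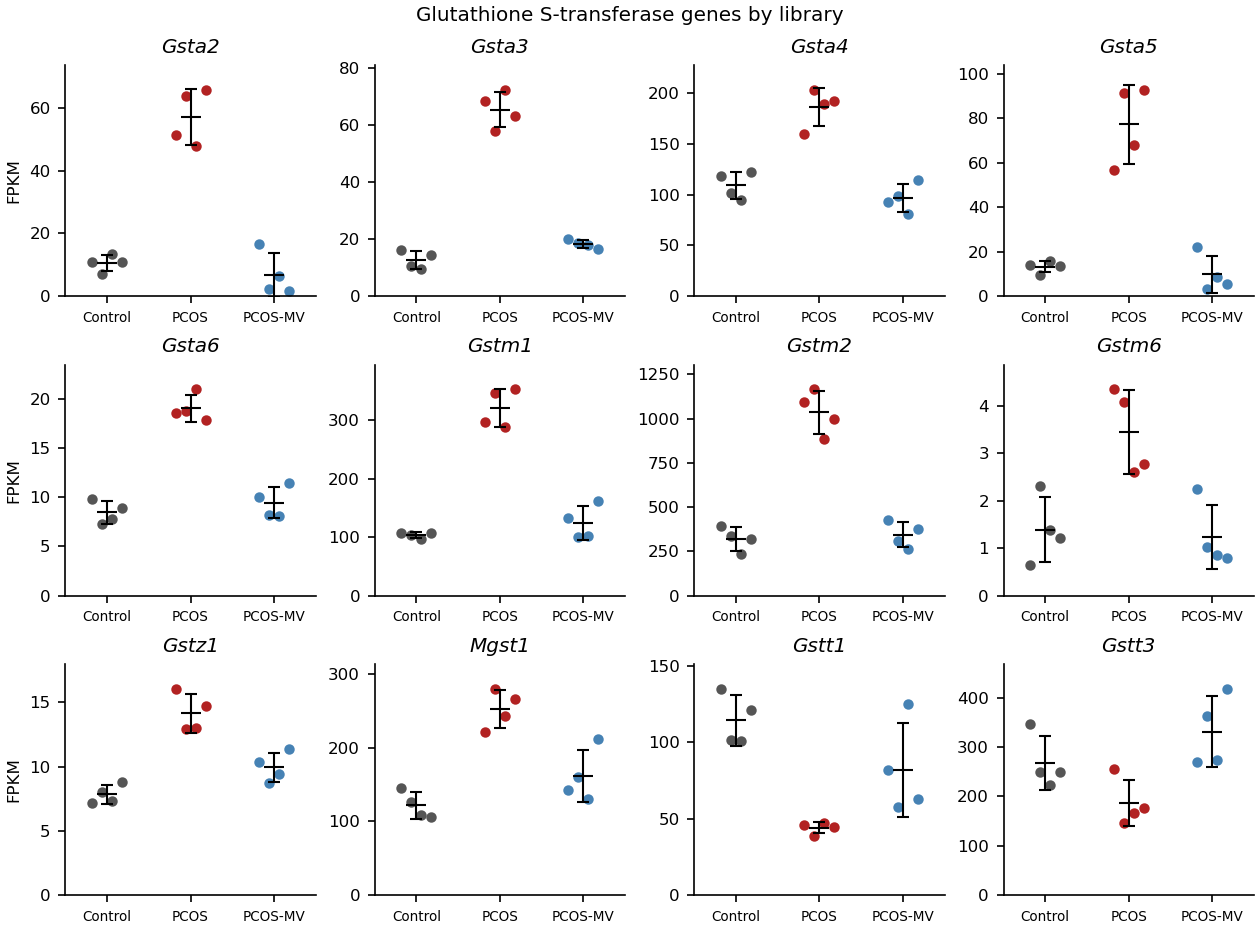
FPKM (y axis, from 0) of 12 GST genes in the 4 Control (grey), 4 PCOS (red) and 4 PCOS-MV (blue) libraries; points are libraries, and the bars are the mean ± SD (the lower bar of Gsta2 in PCOS-MV ends at the axis). In 10 of the 12 panels the PCOS points lie above both other groups, Gstm2 reaching 1165 FPKM, in that of Gstt1 they lie below both, and in that of Gstt3 they overlap Control and lie below PCOS-MV.

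The mu GSTs, most of which lie together on chromosome 2, held the most abundant GST transcript of Control and PCOS, Gstm2. In this class 4 of the 6 tested were higher in PCOS (11.9% of all genes) and lower in PCOS-MV (11.4%). Gstm2 (ENSRNOG00000018937, chromosome 2, 210720704 to 210782856) was at 392, 336, 233 and 319 FPKM in Control, 1097, 1165, 887 and 999.8 in PCOS and 428, 311, 266 and 378 in PCOS-MV. It was the highest GST in every Control and PCOS library and in PCOS-MV replicate 1, while Gstt3 was higher in PCOS-MV replicates 2, 3 and 4. The lowest PCOS value of 887 FPKM stood above the highest value of the other groups, 428 FPKM. The log2 fold changes were 1.71 ± 0.16 (adjusted p = 0.00016) and -1.60 ± 0.16 (adjusted p = 0.000434). Gstm1 (ENSRNOG00000029726, chromosome 2, 210803869 to 210809306), the next mu gene by level, was at 108, 104, 96.1 and 107 FPKM in Control, 297, 346, 288 and 352 in PCOS and 132, 101, 103 and 162 in PCOS-MV. PCOS lay wholly above both groups, and the log2 fold changes were 1.61 ± 0.09 (adjusted p = 1.19e-05) and -1.38 ± 0.16 (adjusted p = 0.000723). Gstm6 (ENSRNOG00000019017, chromosome 2, 210733594 to 210738378) was low throughout, at 0.654, 2.32, 1.39 and 1.21 FPKM in Control, 4.35, 4.08, 2.60 and 2.78 in PCOS and 2.24, 1.03, 0.861 and 0.799 in PCOS-MV. PCOS still lay above the other groups, with log2 fold changes of 0.92 ± 0.23 (adjusted p = 0.0167) and -1.02 ± 0.22 (adjusted p = 0.0106), and the first call was lost without PCOS replicate 2 (adjusted p = 0.0513). Gstm6 and Gstm3l lie within the span of the Gstm2 transcripts, so their low values may hold reads of Gstm2. Gstm4 did not pass, at 13.4 ± 1.41 FPKM in Control (mean ± SD, n = 4), 12.2 ± 0.602 in PCOS and 13.0 ± 0.99 in PCOS-MV. Its log2 fold changes were -0.12 ± 0.08 (adjusted p = 0.31) and 0.08 ± 0.08 (adjusted p = 0.457).

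Gstm3 and Gstm5 have to be read together. Gstm5 (ENSRNOG00000058357, an unplaced scaffold, 52897 to 55984) was listed at exactly 0 in replicate 4 of each group. Its values were 17.2, 16.7, 16.4 and 0 FPKM in Control, 40.4, 45.5, 34.1 and 0 in PCOS and 16.4, 22.8, 20.1 and 0 in PCOS-MV. It was the only gene of the 13430 tested that was at 0 in all 3 libraries of replicate 4 and above 0 in the other 9 libraries. Among all genes tested, 1 gene showed this for replicate 2 and 0 genes for replicates 1 and 3. Gstm3 (ENSRNOG00000049743, chromosome 2, 210685197 to 210688272) was at 17.9, 17.4, 17.1 and 30.5 FPKM in Control, 42.2, 47.5, 35.3 and 60.5 in PCOS and 23.4, 24.1, 21.0 and 31.9 in PCOS-MV. In replicate 4 it was higher than in any other library of its group, and it exceeded Gstm5 in all 12 libraries. The RefSeq gene table of GRCr8 lists Gstm3 as a synonym of Gstm5, so reads of near-identical copies may have been assigned to either. The sum of both genes was 35.2, 34.1, 33.6 and 30.5 FPKM in Control, 82.7, 93.0, 69.3 and 60.5 in PCOS and 39.8, 46.9, 41.0 and 31.9 in PCOS-MV. The 4 PCOS sums were above all other sums. Gstm3 alone had log2 fold changes of 1.14 ± 0.22 (adjusted p = 0.00513) and -0.85 ± 0.18 (adjusted p = 0.00955). Gstm5 was not called over all libraries, at 0.90 ± 1.42 (adjusted p = 0.675) and -0.74 ± 1.45 (adjusted p = 0.744). With replicate 4 left out of both groups, a choice made after these values were seen, the adjusted p of Gstm5 was 0.00197 and 0.0131, with log2 fold changes of 1.20 and -0.99.

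**Figure D3:**
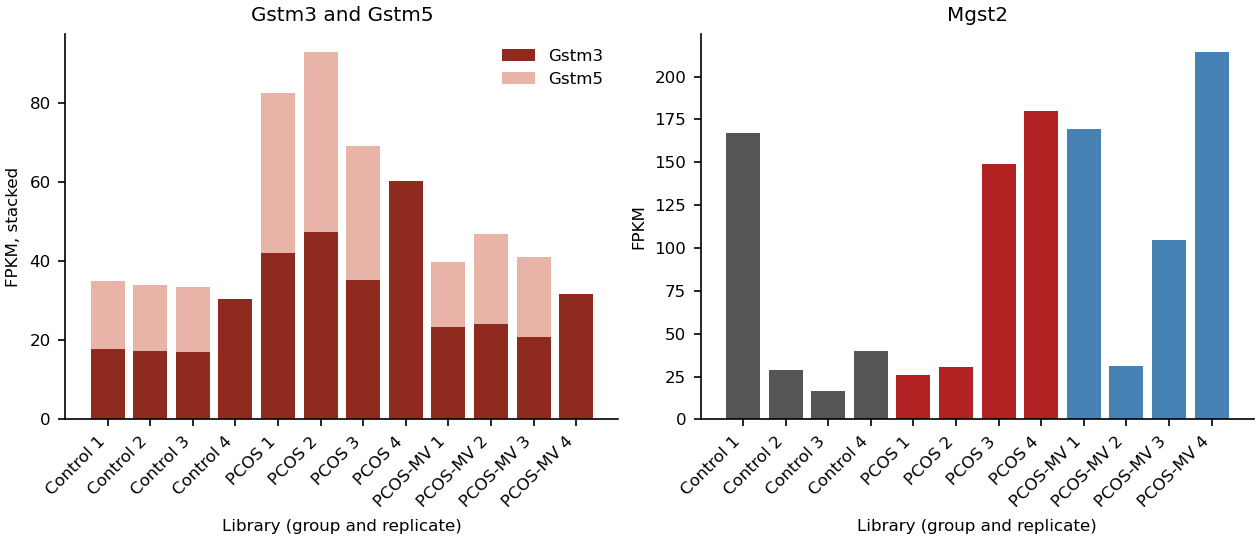
FPKM (y axes, from 0) by library (x axes, group and replicate). Left, Gstm3 and Gstm5 stacked, with no Gstm5 in replicate 4 of any group, where Gstm3 reaches 30.5, 60.5 and 31.9 FPKM; right, Mgst2, which runs from 16.4 to 214 FPKM with high and low libraries in every group.

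Of the 3 theta GSTs, 1 was lower in PCOS than in Control (15.6% of all genes) and 2 were higher in PCOS-MV than in PCOS (14.3%). Gstt1 (ENSRNOG00000049771, chromosome 20, 13799102 to 13816526), which acts on small halogenated and epoxide compounds, was at 135, 101, 101 and 121 FPKM in Control, 46.0, 38.8, 47.5 and 44.4 in PCOS and 82.2, 57.7, 125 and 63.2 in PCOS-MV. Its PCOS values were wholly below both other groups, and the PCOS-MV values spread widest, from 57.7 to 125 FPKM. The log2 fold changes were -1.35 ± 0.11 (adjusted p = 7.83e-05) and 0.82 ± 0.22 (adjusted p = 0.027). The second call was lost without any 1 PCOS library or PCOS-MV replicate 1, at adjusted p-values of 0.0529 (without PCOS replicate 3) to 0.0729 (without PCOS replicate 2), and with no filter on low values (0.0518). Gstt3 (ENSRNOG00000001242, chromosome 20, 13817795 to 13825475), the most abundant theta gene, was at 267 ± 55.1 FPKM in Control, 186 ± 47.1 in PCOS and 331 ± 71.4 in PCOS-MV. It was not called in PCOS against Control (-0.53 ± 0.19, adjusted p = 0.0742), where it passed without PCOS replicate 1 (adjusted p = 0.0196). It was higher in PCOS-MV than in PCOS by 0.83 ± 0.20 (adjusted p = 0.0174), a call lost without PCOS replicate 2 (0.0504). Gstt2 did not pass in either comparison, with log2 fold changes of 0.35 ± 0.12 (adjusted p = 0.0599) and -0.37 ± 0.14 (adjusted p = 0.0789). It passed without PCOS replicate 1 (adjusted p = 0.0358) or with libraries rescaled by median ratio (0.0423) in the first and without PCOS-MV replicate 3 (0.028) in the second.

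Among the other soluble GSTs, zeta alone was called in both comparisons. Gstz1 (ENSRNOG00000047708, chromosome 6, 111176798 to 111187244), an isomerase of tyrosine breakdown, was at 7.19, 8.03, 7.29 and 8.82 FPKM in Control, 16.0, 12.9, 13.0 and 14.7 in PCOS and 10.3, 8.74, 9.43 and 11.3 in PCOS-MV. PCOS was wholly above both groups, with log2 fold changes of 0.78 ± 0.10 (adjusted p = 0.000594) and -0.47 ± 0.10 (adjusted p = 0.0117). Gsto1, which also reduces dehydroascorbate, was at 39.6 to 56.6 FPKM in Control, 49.3 to 55.8 in PCOS and 31.7 to 47.5 in PCOS-MV. It was not called in PCOS against Control (0.23 ± 0.11, adjusted p = 0.167), where it passed without Control replicate 1 (adjusted p = 0.0223). It was lower in PCOS-MV than in PCOS (-0.48 ± 0.12, adjusted p = 0.0203), a call lost without PCOS replicate 2 (0.0556) or 4 (0.0581). Gsto1 lies within the span of Gsto2, which was at 0.588 to 1.44 FPKM over all libraries, with log2 fold changes of 0.01 and -0.04. Gstp1, the pi GST, was at 104 ± 10.4 FPKM in Control, 111 ± 8.87 in PCOS and 129 ± 29.9 in PCOS-MV and was not called (0.10 ± 0.09, adjusted p = 0.459 and 0.19 ± 0.16, adjusted p = 0.413). Gstk1, a mitochondrial and peroxisomal GST, was not called either (0.46 ± 0.20, adjusted p = 0.129 and -0.32 ± 0.13, adjusted p = 0.107), and it passed in PCOS against Control without Control replicate 1 (adjusted p = 0.0279).

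Of the 3 microsomal GSTs, membrane proteins that also reduce lipid peroxides or make leukotriene C4, Mgst1 and Mgst3 were higher in PCOS and lower in PCOS-MV. Mgst1 (ENSRNOG00000007743, chromosome 4, 172119331 to 172134607) was at 146, 127, 108 and 106 FPKM in Control, 222, 279.9, 243 and 267 in PCOS and 143, 161, 131 and 212 in PCOS-MV. All PCOS values were above all others, with log2 fold changes of 1.05 ± 0.12 (adjusted p = 0.000443) and -0.66 ± 0.15 (adjusted p = 0.0147). Mgst3 (ENSRNOG00000004245, chromosome 13, 85601499 to 85622314) was at 15.4, 14.4, 13.2 and 15.2 FPKM in Control, 20.6, 20.02, 20.6 and 20.9 in PCOS and 18.1, 11.6, 13.4 and 17.2 in PCOS-MV. The PCOS values lay within 1 FPKM of each other and above both groups, with log2 fold changes of 0.47 ± 0.07 (adjusted p = 0.00122) and -0.44 ± 0.13 (adjusted p = 0.0385). The call in PCOS-MV was lost without any 1 PCOS library or PCOS-MV replicate 2 or 3, at adjusted p-values of 0.0652 (without PCOS-MV replicate 2) to 0.09 (without PCOS replicate 4), and with no filter on low values (0.0604). Mgst2 (ENSRNOG00000061857, chromosome 2, 140708397 to 140727281), a leukotriene C4 synthase, was at 167, 28.7, 16.4 and 39.6 FPKM in Control, 25.7, 30.5, 149 and 180.0 in PCOS and 169, 31.2, 105 and 214 in PCOS-MV. Each group held both low and high libraries, and no difference was detectable above that spread, with log2 fold changes of 0.67 ± 0.84 (adjusted p = 0.591) and 0.61 ± 0.80 (adjusted p = 0.609).

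Summed over the 24 genes, GST transcripts amounted to 1399.8 ± 249 FPKM in Control (mean ± SD, n = 4), 2681 ± 145 in PCOS and 1599 ± 241 in PCOS-MV. The mu class gave 473 ± 71.5, 1451 ± 151 and 525 ± 91.1 FPKM of this, the alpha class 154 ± 17.9, 405 ± 37.2 and 141 ± 17.7, and the theta class 403 ± 67.7, 258 ± 46.6 and 434 ± 51.2. As a share of the GST sum, Gstm2 alone made up 22.8% ± 2.04 in Control, 38.6% ± 3.36 in PCOS and 21.6% ± 2.95 in PCOS-MV, and the theta class 28.8% ± 0.807, 9.65% ± 1.95 and 27.4% ± 3.88. By mean level the mu class came first in each group, followed by theta in Control and PCOS-MV. The alpha and microsomal means differed by less than the SD of the microsomal class in Control and in PCOS, and their order is not given for these groups.

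**Figure D4:**
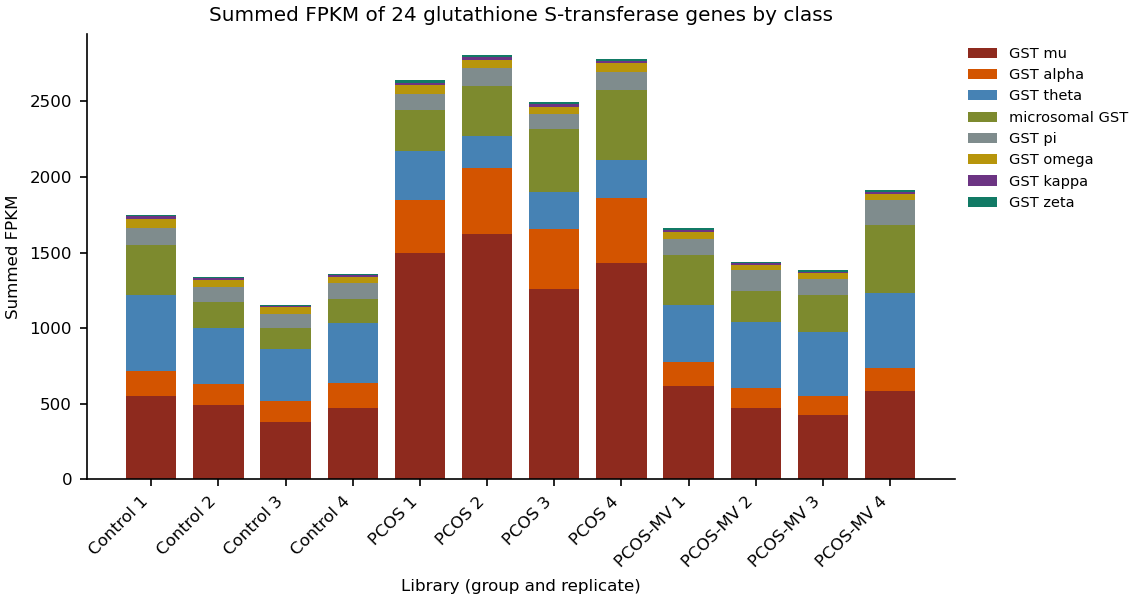
FPKM of the 24 GST genes summed by class (y axis, from 0) in each of the 12 libraries (x axis, group and replicate). The 4 PCOS bars reach 2494 to 2807 FPKM and the 8 others 1154 to 1913, with the mu class (dark red) the largest part of each bar.

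Of the 4 genes that make and recycle glutathione, 0 were higher and 2 lower in PCOS than in Control, beside 11.9% and 15.6% of all genes. Gclc and Gclm, the catalytic and modifier subunits of the rate-limiting ligase, were not called in either comparison. Gclc was at 21.4 ± 4.48 FPKM in Control, 21.0 ± 3.93 in PCOS and 18.9 ± 4.50 in PCOS-MV, and Gclm at 12.4 ± 1.72, 15.8 ± 4.23 and 10.3 ± 1.84. The log2 fold change of Gclc in PCOS against Control was -0.02 ± 0.16 (adjusted p = 0.95), with a 95% interval of -0.39 to 0.36. Gclm had 0.31 ± 0.17 (adjusted p = 0.224) and -0.55 ± 0.18 (adjusted p = 0.0563), and the latter passed without PCOS replicate 2 (adjusted p = 0.0351) or PCOS-MV replicate 3 (0.0387), in 1 model for all 12 libraries (0.035) and with libraries rescaled by median ratio (0.0458). Gss (ENSRNOG00000018964, chromosome 3, 151076254 to 151106557), glutathione synthetase, was at 19.5, 14.9, 23.97 and 22.3 FPKM in Control, 13.3, 12.6, 10.7 and 13.2 in PCOS and 15.3, 24.2, 16.2 and 28.0 in PCOS-MV. The PCOS values were below both other groups, and the PCOS-MV values fell into a lower pair in replicates 1 and 3 and a higher pair in replicates 2 and 4. The log2 fold changes were -0.63 ± 0.14 (adjusted p = 0.0117) and 0.66 ± 0.19 (adjusted p = 0.0326). The second call was lost without any 1 PCOS library or PCOS-MV replicate 2 or 4, at adjusted p-values of 0.0562 (without PCOS replicate 1) to 0.0852 (without PCOS replicate 3), and with no filter on low values (0.0589). Gsr, glutathione reductase, was at 35.9 to 44.9 FPKM in Control, 27.0 to 31.3 in PCOS and 31.7 to 36.6 in PCOS-MV. It was lower in PCOS than in Control (-0.44 ± 0.08, adjusted p = 0.00536) and was not called in PCOS-MV against PCOS (0.20 ± 0.08, adjusted p = 0.0834), though the 4 PCOS-MV values lay above the 4 PCOS values.

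Among the 6 glutathione peroxidases, Gpx1 carried the largest called difference. Gpx1 (ENSRNOG00000048812, chromosome 8, 117117430 to 117118522), the cytosolic selenoenzyme that reduces hydrogen peroxide, was at 255, 224, 224 and 189 FPKM in Control, 96.2, 87.2, 116 and 123 in PCOS and 218, 233, 245 and 251 in PCOS-MV. PCOS was wholly below both groups, which overlapped, with log2 fold changes of -1.08 ± 0.13 (adjusted p = 0.000599) and 1.17 ± 0.12 (adjusted p = 0.000389). Gpx8, a membrane peroxidase of the endoplasmic reticulum, was at 31.6 ± 4.28 FPKM in Control, 50.7 ± 5.40 in PCOS and 39.9 ± 7.96 in PCOS-MV. It was higher in PCOS than in Control (0.67 ± 0.11, adjusted p = 0.00301) and not called in PCOS-MV against PCOS (-0.36 ± 0.15, adjusted p = 0.117). Gpx3, the secreted plasma peroxidase, was not called in PCOS (-0.35 ± 0.17, adjusted p = 0.164) and was higher in PCOS-MV than in PCOS (0.63 ± 0.20, adjusted p = 0.0488). This call was lost without any 1 PCOS library or PCOS-MV replicate 1 or 2, at adjusted p-values of 0.0637 (without PCOS-MV replicate 2) to 0.12 (without PCOS replicate 3), and with no filter on low values (0.0829). Gpx4, which protects membranes from lipid peroxides, was at 92.3 ± 8.37, 97.3 ± 5.99 and 129 ± 35.0 FPKM in Control, PCOS and PCOS-MV. It was not called (0.08 ± 0.08, adjusted p = 0.533 and 0.36 ± 0.17, adjusted p = 0.162). It passed in the second comparison without PCOS-MV replicate 1 (adjusted p = 0.0367). Gpx7 of the endoplasmic reticulum was not called (0.28 ± 0.11, adjusted p = 0.0891 and -0.25 ± 0.16, adjusted p = 0.286), and it passed in PCOS against Control without Control replicate 1 (adjusted p = 0.0253).

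Gpx2 (ENSRNOG00000055672, chromosome 6, 99839960 to 99843245), a peroxidase of epithelia, was at 0.112, 0.148, 9.17 and 1.16 FPKM in Control, 0.156, 0.258, 0.0328 and 0 in PCOS and 0.286, 1.58, 0.0537 and 0.552 in PCOS-MV. It was listed at 0 in PCOS replicate 4 and was at most 1.58 FPKM in all but Control replicate 3. That library also had the highest values of Dnah9 (0.129, 0.798, 4.38 and 0.931 FPKM in Control replicates 1 to 4), Adipoq (15.3, 3.68, 26.0 and 7.93) and Myh11 (52.4, 72.2, 143 and 46.8), markers of oviduct epithelium, fat and smooth muscle. The summed adipocyte markers, all 4 on the list, were at 5.27 to 36.1 FPKM in Control, 0.691 to 3.85 in PCOS and 1.09 to 2.03 in PCOS-MV, with both of the 2 tested lower in PCOS than in Control and 0 called in PCOS-MV against PCOS, and the 3 smooth muscle markers at 172 to 499.8, 232 to 276 and 161 to 329.8. The part of these tissues in the Gpx2 value was not tested. No difference of Gpx2 was detectable between the groups (-1.05 ± 0.64, adjusted p = 0.255 and 0.46 ± 0.25, adjusted p = 0.214).

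Outside the GSTs, peroxiredoxins were the most abundant of these transcripts, with Prdx2 reaching 623 FPKM. In each comparison 1 of the 6 was called in each direction. Over all genes 11.9% were higher and 15.6% lower in PCOS, and 14.3% higher and 11.4% lower in PCOS-MV against PCOS. Prdx5 (ENSRNOG00000021125, chromosome 1, 222164462 to 222167447), an enzyme of mitochondria, peroxisomes and cytosol, was at 113, 123, 135 and 111 FPKM in Control, 56.3, 56.3, 58.3 and 55.8 in PCOS and 109, 138, 176 and 144 in PCOS-MV. Its PCOS values lay within 3 FPKM of each other, and the highest of them, 58.3 FPKM, was far below the lowest of the other groups, 109 FPKM. The log2 fold changes were -1.07 ± 0.08 (adjusted p = 3.64e-05) and 1.29 ± 0.13 (adjusted p = 0.000384). Prdx6 (ENSRNOG00000002896, chromosome 13, 79077033 to 79088127), the single-cysteine peroxiredoxin that also repairs phospholipids, was at 133, 124, 103 and 102 FPKM in Control, 149.8, 152, 141 and 169 in PCOS and 129, 121, 112 and 126 in PCOS-MV. The PCOS values were above the others by a small margin, with log2 fold changes of 0.41 ± 0.11 (adjusted p = 0.0228) and -0.32 ± 0.08 (adjusted p = 0.023). Its first call was lost without Control replicate 4 (adjusted p = 0.0587), PCOS replicate 2 (0.0566) or PCOS replicate 4 (0.0687), and its second without PCOS replicate 2 (0.0597), PCOS replicate 4 (0.0659) or PCOS-MV replicate 2 (0.0563). Mean levels of the others in Control, PCOS and PCOS-MV were 319 ± 45.4, 302 ± 18.1 and 281 ± 11.5 FPKM for the cytosolic Prdx1. They were 439 ± 142, 328 ± 27.9 and 429 ± 94.4 FPKM for the cytosolic Prdx2 and 293 ± 87.8, 206 ± 24.2 and 279 ± 54.1 for the mitochondrial Prdx3. Prdx4 of the endoplasmic reticulum was at 58.9 ± 5.66, 57.3 ± 4.60 and 53.8 ± 6.92 FPKM. Limma called 0 of these 4 in either comparison. In PCOS against Control 0 were under an unadjusted p of 0.05, and in PCOS-MV against PCOS 1 was, beside 5285 and 5173 of all 13430 genes. Prdx3 lay wholly above PCOS in PCOS-MV, as did 16.7% of all genes. Prdx2 and Prdx3 passed as lower in PCOS than in Control without Control replicate 3 (adjusted p = 0.0411 and 0.0242), and Prdx2 as higher in PCOS-MV than in PCOS without PCOS-MV replicate 3 (0.0081).

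Cytosolic and extracellular superoxide dismutase and catalase were higher in PCOS and lower in PCOS-MV, and the mitochondrial dismutase Sod2 was not called. Sod3 (ENSRNOG00000003869, chromosome 14, 60958592 to 60964324), the secreted enzyme, was at 49.8, 62.4, 65.3 and 52.7 FPKM in Control, 143, 144, 113 and 119.6 in PCOS and 70.7, 71.4, 77.2 and 97.3 in PCOS-MV. All PCOS values were above all others, and PCOS-MV lay wholly above Control, with log2 fold changes of 1.16 ± 0.12 (adjusted p = 0.000238) and -0.71 ± 0.13 (adjusted p = 0.00525). Sod1 (ENSRNOG00000002115, chromosome 11, 30363280 to 30368862), the cytosolic copper and zinc enzyme, was at 247, 227, 199.6 and 215 FPKM in Control, 299, 336, 296 and 324 in PCOS and 206, 135, 201 and 152 in PCOS-MV. PCOS was again wholly above, and PCOS-MV replicates 2 and 4 were lower than every Control library, with log2 fold changes of 0.50 ± 0.09 (adjusted p = 0.00407) and -0.87 ± 0.15 (adjusted p = 0.00356). Cat (ENSRNOG00000008364, chromosome 3, 93379874 to 93412058), the peroxisomal catalase, was at 51.6, 47.7, 35.7 and 41.4 FPKM in Control, 63.6, 55.9, 53.9 and 58.7 in PCOS and 49.0, 41.8, 52.0 and 46.6 in PCOS-MV. The PCOS values were above the others by a small margin, and the log2 fold changes were 0.40 ± 0.12 (adjusted p = 0.035) and -0.29 ± 0.09 (adjusted p = 0.0406). Its first call was lost without Control replicate 3 or 4 or any 1 PCOS library, at adjusted p-values of 0.0505 (without Control replicate 3) to 0.0835 (without PCOS replicate 4), and with no filter on low values (0.0515). Its second was lost without PCOS replicate 1, 2 or 4 or PCOS-MV replicate 1, 2 or 4, at 0.0573 (without PCOS-MV replicate 1) to 0.0964 (without PCOS replicate 4), and in 1 model for all 12 libraries (0.0831). Sod2 was at 88.4 ± 25.6 FPKM in Control, 92.2 ± 17.2 in PCOS and 96.4 ± 28.4 in PCOS-MV, with log2 fold changes of 0.09 ± 0.22 (adjusted p = 0.801) and 0.03 ± 0.23 (adjusted p = 0.933).

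**Figure D5:**
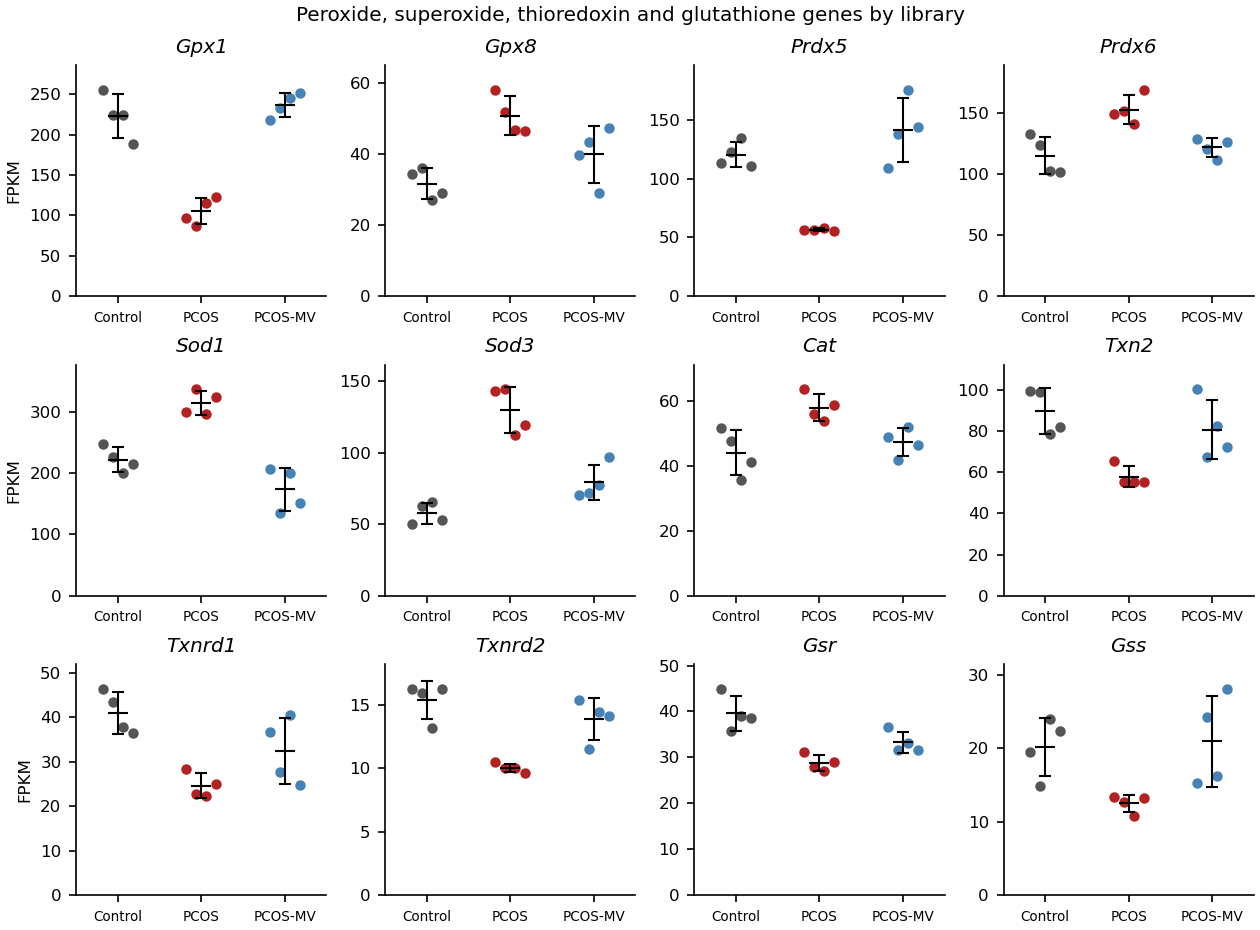
FPKM (y axis, from 0) of 12 genes of peroxide and superoxide removal, the thioredoxin system and glutathione recycling in the 4 Control (grey), 4 PCOS (red) and 4 PCOS-MV (blue) libraries; points are libraries and bars the mean ± SD. PCOS points lie above both other groups for Prdx6, Sod1, Sod3 and Cat and below both for Gpx1, Prdx5, Txn2, Txnrd2, Gsr and Gss, with Prdx5 at 55.8 to 58.3 FPKM in PCOS.

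Thioredoxins reduce peroxiredoxins and ribonucleotide reductase, and thioredoxin reductases, which are selenoenzymes, restore them. Of the 4 genes, 3 were lower in PCOS than in Control (15.6% of all genes), and 3 were higher in PCOS-MV than in PCOS (14.3%). Txn2 (ENSRNOG00000005614, chromosome 7, 119144351 to 119158201), the mitochondrial thioredoxin, was at 99.5, 98.9, 78.4 and 82.2 FPKM in Control, 65.3, 55.3, 55.4 and 55.5 in PCOS and 100.2, 67.4, 82.7 and 72.5 in PCOS-MV. PCOS was wholly below both groups, with log2 fold changes of -0.62 ± 0.10 (adjusted p = 0.00276) and 0.46 ± 0.13 (adjusted p = 0.0291). The second call was lost without PCOS replicate 2 (adjusted p = 0.0764), 3 (0.0724) or 4 (0.0771) or PCOS-MV replicate 3 (0.0566). Txnrd2 (ENSRNOG00000001890, chromosome 11, 86667997 to 86716254), the mitochondrial reductase, was at 16.3, 15.9, 13.2 and 16.3 FPKM in Control, 10.5, 10.1, 10.002 and 9.66 in PCOS and 15.4, 11.5, 14.5 and 14.2 in PCOS-MV. The PCOS values lay within 1 FPKM of each other below both groups, with log2 fold changes of -0.57 ± 0.08 (adjusted p = 0.00129) and 0.42 ± 0.09 (adjusted p = 0.011). Txnrd1, the cytosolic reductase, was at 41.0 ± 4.72 FPKM in Control, 24.6 ± 2.76 in PCOS and 32.5 ± 7.42 in PCOS-MV. It was lower in PCOS (-0.71 ± 0.11, adjusted p = 0.00154) and was not called in PCOS-MV against PCOS (0.36 ± 0.16, adjusted p = 0.126). Txn1, the cytosolic thioredoxin, was not called in PCOS (-0.11 ± 0.09, adjusted p = 0.4) and was higher in PCOS-MV than in PCOS (0.35 ± 0.09, adjusted p = 0.0197), a call lost without PCOS replicate 3 (0.053), PCOS replicate 4 (0.0551) or PCOS-MV replicate 2 (0.0545).

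Between PCOS-MV and Control, limma called 0 of the 50 genes, with 0.00745% of all genes called, and 7 of the 50 were under an unadjusted p of 0.05, as were 1142 of all genes. Gsta3, Sod3 and Keap1 had non-overlapping values above Control, with an exact permutation p of 0.0286 each, where 2.81% of all genes lay above and 2.29% below, and 0 of the 50 lay below. The log2 fold change was 0.52 ± 0.16 (adjusted p = 0.497) for Gsta3, with a 95% interval of 0.16 to 0.88, and 0.45 ± 0.13 (adjusted p = 0.497) for Sod3, with an interval of 0.15 to 0.75. Keap1 had 0.09 ± 0.06 (adjusted p = 0.681). Several genes with large differences in PCOS had wide intervals here. That of Gsta2 ran from -2.25 to 0.29, that of Gsta5 from -1.71 to 0.38 and that of Gstt1 from -1.07 to 0.01, so levels like those of Control are not shown for these genes. The interval was narrower for Gpx1 (-0.15 to 0.34), Txnrd2 (-0.39 to 0.11) and Gsta6 (-0.16 to 0.44).

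The genes around these enzymes were read from 5 lists. Their counts stand beside 11.9% of all genes higher and 15.6% lower in PCOS against Control. In PCOS-MV against PCOS, 14.3% of all genes were higher and 11.4% lower. Of 13 tested genes of glutathione turnover and export, 3 were higher and 5 lower in PCOS than in Control, and 6 were higher and 3 lower in PCOS-MV than in PCOS. Slc7a11, which imports the cystine needed for glutathione, was at 0.453 to 0.707 FPKM in Control, 14.6 to 51.1 in PCOS and 0.391 to 1.23 in PCOS-MV. Its log2 fold changes were 4.11 ± 0.31 (adjusted p = 4.95e-05) and -4.00 ± 0.34 (adjusted p = 0.00018). Ggt1, which starts the breakdown of glutathione outside the cell, was at 25.1 to 40.2, 3.53 to 7.38 and 19.9 to 35.8 FPKM, with -2.60 ± 0.21 (adjusted p = 5.85e-05) and 2.19 ± 0.23 (adjusted p = 0.000462). The dipeptidase gene Dpep1, which acts after it, had 2.30 ± 0.18 (adjusted p = 5.25e-05) and -1.80 ± 0.18 (adjusted p = 0.000353). The aminopeptidase gene Anpep had -1.36 ± 0.12 (adjusted p = 0.00011) and 1.51 ± 0.28 (adjusted p = 0.0059). The median log2 fold change of the list was -0.14 in PCOS and 0.24 in PCOS-MV against PCOS.

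NADPH drives both reductases. Of 8 tested genes that supply it, 0 were higher and 3 lower in PCOS, and 3 were higher and 0 lower in PCOS-MV against PCOS, with medians of -0.16 and 0.20. Idh1, the cytosolic isocitrate dehydrogenase, was at 335 to 672 FPKM in Control, 89.5 to 123 in PCOS and 272 to 670.2 in PCOS-MV, with -2.31 ± 0.21 (adjusted p = 0.000108) and 1.98 ± 0.27 (adjusted p = 0.0015). Aldh1l1, which oxidises formyl folate, had -0.55 ± 0.15 (adjusted p = 0.0252) and 0.49 ± 0.24 (adjusted p = 0.169). The Aldh1l1 call held in 3 of 8 fits with 1 library left out, with adjusted p-values of up to 0.0684, and its Control and PCOS values overlapped.

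Among 23 tested glutaredoxins, repair enzymes and other redox partners, 5 were higher and 5 lower in PCOS, and 5 were higher and 4 lower in PCOS-MV against PCOS, with medians of -0.01 and -0.15. Selenop, the secreted selenium carrier, was at 427 to 633 FPKM in Control, 3049 to 3180.0 in PCOS and 384 to 778 in PCOS-MV, with 2.53 ± 0.13 (adjusted p = 8.44e-06) and -2.54 ± 0.20 (adjusted p = 0.000128). Pon3, a lactonase that limits lipid peroxidation, had 2.22 ± 0.10 (adjusted p = 5.7e-06) and -2.48 ± 0.21 (adjusted p = 0.000178). Aifm2, which reduces ubiquinone at membranes, had -1.27 ± 0.19 (adjusted p = 0.00141) and 1.82 ± 0.07 (adjusted p = 7.58e-06). The methionine sulfoxide reductase Msrb1 had -1.01 ± 0.13 (adjusted p = 0.000635) and 1.24 ± 0.12 (adjusted p = 0.000301).

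Of 16 tested partners and targets of NRF2, 2 were higher and 5 lower in PCOS, and 3 were higher and 2 lower in PCOS-MV against PCOS, with medians of -0.24 and 0.14. Ephx1, microsomal epoxide hydrolase, was at 52.4 to 77.3 FPKM in Control, 433 to 550.2 in PCOS and 24.6 to 105 in PCOS-MV, with 2.87 ± 0.14 (adjusted p = 7.09e-06) and -3.30 ± 0.42 (adjusted p = 0.00105). Fth1, the ferritin heavy chain, had 1.003 ± 0.10 (adjusted p = 0.000247) and -0.96 ± 0.13 (adjusted p = 0.00124). Osgin1, a stress-induced gene, had -1.87 ± 0.30 (adjusted p = 0.00211) and 1.58 ± 0.40 (adjusted p = 0.0201), and its second call held in 5 of 8 fits with 1 library left out. The NRF2 relative Nfe2l1 had -0.98 ± 0.08 (adjusted p = 8.63e-05) and 0.75 ± 0.28 (adjusted p = 0.0797). Of 8 tested enzymes that produce oxidants, 3 were higher and 0 lower in PCOS, and 1 was higher and 1 lower in PCOS-MV against PCOS, with medians of 0.07 and 0.01. Aldehyde oxidase Aox1 had 1.73 ± 0.16 (adjusted p = 0.000107) and -1.75 ± 0.22 (adjusted p = 0.000913). Monoamine oxidase Maob had 1.17 ± 0.15 (adjusted p = 0.000692) and -0.60 ± 0.29 (adjusted p = 0.162), and xanthine dehydrogenase Xdh 0.57 ± 0.17 (adjusted p = 0.0404) and -0.42 ± 0.17 (adjusted p = 0.11). The Xdh call held in 1 of 8 fits with 1 library left out, with adjusted p-values of up to 0.102, and its Control and PCOS values overlapped (exact permutation p = 0.0857).

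Some cell type markers also differed between the groups, and their counts stand beside the same shares of all genes as the lists above. Besides theca, 4 of the 5 luteal markers were lower and 1, Lhcgr, was higher in PCOS than in Control, and 2 were higher and 1 lower in PCOS-MV against PCOS. Their sum was 4190.0 to 7896 FPKM in Control, 1734 to 3344 in PCOS and 2899 to 6817 in PCOS-MV. Of the 7 granulosa markers, 3 were higher and 0 lower in PCOS and 0 higher and 3 lower in PCOS-MV against PCOS, with sums of 556 to 787, 881 to 1257 and 584 to 878 FPKM. The 2 endothelial markers were both lower in PCOS and both higher in PCOS-MV against PCOS, with sums of 49.2 to 63.5, 23.96 to 28.9 and 41.8 to 63.6. Of 5 tested leukocyte markers 2 were higher and 0 lower in PCOS, and 1 was higher and 2 lower in PCOS-MV against PCOS, with sums of 46.7 to 66.4, 59.8 to 69.2 and 56.1 to 70.3 FPKM. Oocyte markers, at 13.6 to 23.3, 12.4 to 14.2 and 15.2 to 23.9 FPKM, erythroid markers, at 161 to 313, 72.3 to 257 and 50.5 to 168, and smooth muscle markers had 0 called in both comparisons. The 3 liver markers summed to 2.23 to 5.14, 0.73 to 6.19 and 2.24 to 5.67 FPKM, and the 1 that was tested, Apoa1, was lower in PCOS and higher in PCOS-MV than in PCOS. How far these shifts carry the enzyme differences was not tested.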

How the data were processed

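Ovarian RNA of 12 rats was sequenced with the NEBNext Ultra kit, and groups and replicate numbers were taken from the sample titles. The authors removed adapter and low-quality reads, aligned the rest with HISAT2 v2.0.5 and computed from featureCounts output the FPKM values that they deposited. The submitters' processing notes name STAR 2.5.1b and HTSeq 0.6.0 instead, and this was not resolved. The genome build is not given in the sources used here, so positions are those of the authors' file. The methods give 3 replicates per condition for the authors' test, while here each group has 4 libraries. The file's group means and the authors' own fold changes and p-values were not used. The file has 26928 transcript lines, those of a gene repeating the same values, and each of the 19730 genes entered with 1 of its lines. How reads of near-identical genes and of the strands were assigned is not given in the sources used here.

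Since the values are FPKM and not counts, log2(FPKM + 1) was tested with limma 3.58.1 (lmFit, eBayes with trend) in R 4.3.3, between pairs of groups without covariates. The 13430 genes tested had a mean over the 12 libraries of 1 FPKM or more. P-values were adjusted by the Benjamini-Hochberg method over all of these genes. For single genes an exact permutation test, two-sided, was added. The procedure was tested on simulated data. Tables and plots were made with Python 3.11.15, pandas 2.3.3 and matplotlib 3.10.9. Within a group, the correlation of libraries over the tested genes was 0.921 to 0.974 in Control, 0.972 to 0.978 in PCOS and 0.952 to 0.978 in PCOS-MV, and no 2 libraries were identical.

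The genes and lists were chosen with earlier results of these data known. Values in each library are given for genes called in both PCOS against Control and PCOS-MV against PCOS, and for tested genes with a value of exactly 0 in a library, and group means or ranges for the other members. Of other lists, at most 4 genes called in PCOS against Control are named, by size of change. The values of 1 gene of these lists are not reported here. Mgst2 values were added after they were seen. Promoters came from RefSeq (GRCr8). Alternatives covered a pseudocount of 0.1, no filter, a minimum mean of 5 FPKM, 1 model for 12 libraries, a replicate block, a 2-fold threshold, rescaling by median ratio, each library left out, and, chosen after seeing the data, replicate 4 left out of both groups.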

Additional observations from a re-analysis of the deposited data

Results flagged for a closer look

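In 11 of 156 groups of 4 libraries, 1 library stood apart from the other 3 by Dixon's criterion, where chance gives about 7.8. None of these is explained here. Both genes of the Gstm3 and Gstm5 pair are among them in Control replicate 4, Gstm3 at 30.5 FPKM against 17.1 to 17.9 in the others and Gstm5 at 0 against 16.4 to 17.2. Control replicate 1 had 167 FPKM of Mgst2 against 16.4 to 39.6, and 0.588 FPKM of Gsto2 against 1.23 to 1.32. Control replicate 3 had 9.17 FPKM of Gpx2 against 0.112 to 1.16, and 13.2 FPKM of Txnrd2 against 15.9 to 16.3. In the PCOS group, replicate 1 had 65.3 FPKM of Txn2 against 55.3 to 55.5, and replicate 3 had 49.3 FPKM of Gsto1 against 54.9 to 55.8. In the PCOS-MV group, replicate 1 had 25.6 FPKM of Gclc against 16.0 to 17.4 and 2.24 FPKM of Gstm6 against 0.799 to 1.03, and replicate 3 had 2.36 FPKM of Gstm6l against 0.118 to 0.495.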

How the results depend on the processing

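No called difference changed direction under any alternative run. With a 2-fold threshold added, 9 genes were higher and 3 lower in PCOS against Control, and 2 were higher and 6 lower in PCOS-MV against PCOS. Leaving out 1 library at a time gave 14 to 21 higher and 8 to 10 lower genes in PCOS against Control, and 4 to 9 higher and 13 to 18 lower in PCOS-MV against PCOS, where the higher genes numbered 4 without PCOS replicate 2, 3 or 4. Of the 26 calls in each comparison, 22 held in all 8 such fits of PCOS against Control and 16 in those of PCOS-MV against PCOS. Without replicate 4 of both groups, chosen after the zeros of Gstm5 were seen, 15 were higher and 7 lower, and 2 were higher and 13 lower, with 6 libraries in each fit in place of 8. With no filter on low values 17 were higher and 8 lower, and 6 were higher and 16 lower. Rescaling by median ratio gave 20 and 8, and 9 and 18. Between PCOS-MV and Control 0 genes were called under every alternative run. Depth is unknown for FPKM, and values of genes near 1 FPKM, such as Gsto2, Gpx2 and Gstm6, are the least certain.

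The groups share replicate numbers, but no source says that a number marks a shared litter or day, and not every pair reached a correlation of 0.1, so they were taken to share only a number. Same-numbered libraries of PCOS and Control had correlations of their deviations from the group means of -0.033 to 0.024, those of PCOS-MV and PCOS 0.035 to 0.172, and those of PCOS-MV and Control -0.053 to 0.216. Of 8 libraries each, 0, 7 and 2 correlated best with their own number, a hint from the data and not the design. With the replicate block, 19 genes were higher and 9 lower in PCOS against Control, 9 were higher and 16 lower in PCOS-MV against PCOS, and 0 were called in PCOS-MV against Control. In the first, Gstm5 (adjusted p = 0.0461), Gstt2 (0.0316), Gstt3 (0.0134) and Nfe2l2 (0.0284) passed with the block, and Keap1 (0.102) and Prdx6 (0.0502) did not. In the second, Prdx3 (0.043) passed, and Cat (0.0611) and Gpx3 (0.057) did not.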

Other observations

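The following groups were formed after the values had been seen, so they are descriptions with no test. Over all genes, 11.9% were higher and 15.6% lower in PCOS than in Control, and 14.3% were higher and 11.4% lower in PCOS-MV than in PCOS. Of the 6 tested selenocysteine enzymes (Gpx1, Gpx2, Gpx3, Gpx4, Txnrd1 and Txnrd2), 0 were higher and 3 lower in PCOS than in Control, and 3 were higher and 0 lower in PCOS-MV than in PCOS, with median log2 fold changes of -0.64 and 0.44. Their selenium carrier Selenop differed in the other direction, with 2.53 and -2.54. Of the 6 mitochondrial enzymes (Prdx3, Prdx5, Txn2, Txnrd2, Sod2 and Gstk1), 0 were higher and 3 lower in PCOS, and 3 were higher and 0 lower in PCOS-MV against PCOS, with medians of -0.52 and 0.43. Of 5 secreted or endoplasmic reticulum enzymes (Sod3, Gpx3, Gpx7, Gpx8 and Prdx4), 2 were higher and 0 lower in PCOS, and 1 was higher and 1 lower in PCOS-MV against PCOS. This group leaves out the 3 microsomal GSTs, of which 2 were higher and 0 lower in PCOS, and 0 higher and 2 lower in PCOS-MV against PCOS.

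The 4 PCOS-MV libraries were not alike. The genes named here were picked after their values were seen, and how many other genes share the pattern was not counted. Gsta2 was at 16.6, 2.23, 6.32 and 1.62 FPKM in replicates 1 to 4 and Gsta5 at 22.1, 3.38, 8.61 and 5.30, while Cyp17a1, the theca enzyme of androgen synthesis, was at 88.1, 1.57, 53.4 and 6.41 and the receptor gene Lhcgr at 97.8, 15.2, 57.5 and 25.9. Gss, at 15.3, 24.2, 16.2 and 28.0, Gpx4, at 92.1, 133, 115 and 175, and Gstp1, at 105, 141, 104 and 165, were higher in replicates 2 and 4, where Gsta2, Cyp17a1 and Lhcgr were lowest. Of the other theca markers, Insl3 and Ptch1 were lowest in replicate 3. Aldh1a1 was lowest in replicate 2, but its value in replicate 4 was above that in replicate 3. Insl3 was at 14.5, 6.27, 4.91 and 5.88 FPKM, Aldh1a1 at 39.2, 15.5, 30.6 and 34.0 and Ptch1 at 21.6, 17.85, 15.5 and 18.3. Sod1 was at 206, 135, 201 and 152 FPKM and Txnrd1 at 36.7, 27.7, 40.7 and 24.9, both lower in replicates 2 and 4. The luteal markers Scarb1, at 1932, 451, 1352 and 431, and Cyp11a1, at 2632, 757, 1808 and 772, were also lower in replicates 2 and 4. So was Star, at 2105, 1631, 2891 and 1589, while Ptgfr, at 50.25, 60.2, 173 and 81.5, was lowest in replicate 1. The sum over the 5 luteal markers was 6817, 2915, 6282 and 2899 FPKM in replicates 1 to 4. The part of these cell types in the enzyme values was not tested. These libraries carry no label that separates them.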
